A study of Mus musculus with 2 samples.

Results

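Hypoxia response and glycolysis genes are described here in leukocytes of a mouse melanoma, as a list of 36 symbols that were all found among the 32285 genes of the deposited count matrices. The list holds 16 targets of the hypoxia-inducible factors (HIF) that lie outside glycolysis, 13 glycolytic enzymes, 5 genes of fuel transport and flux control, the cytokine gene Mif and Hif1a, which encodes the oxygen-regulated HIF subunit. The genes were measured by droplet single-cell RNA-seq in CD45+ cells, that is leukocytes, sorted by flow cytometry from subcutaneous B16F10 tumours, B16F10 being a transplantable melanoma line. The control library came from wild-type (WT) mice given untreated BMDMs (macrophages grown from bone marrow), and the IL4 library from WT mice given BMDMs treated with interleukin-4. The groups rest on the labels' treatment field, since a second field names IL-4-treated BMDMs for both libraries. Animal numbers, ages and sexes are not in the labels, and no label separates transferred cells from those of the recipient. Each group is 1 library, so the differences below are between 2 libraries, with no measure of the spread between animals and no test.

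Cells sense oxygen through prolyl hydroxylases that mark HIF subunits for degradation while oxygen is present. When oxygen is low, the HIF alpha subunit is stabilised, pairs with ARNT and binds DNA at a short core motif, and its targets are transcribed. These targets include the glucose transporter and most glycolytic enzymes, so that cells can make ATP without respiration, and also genes for mitochondrial turnover, collagen modification, lipid storage and the prolyl hydroxylases themselves, which act as feedback. Glycolytic genes have other inputs as well, such as MYC and mTOR signalling in proliferating or activated leukocytes. HIF activity is regulated mainly at the protein level, so the Hif1a transcript is not a measure of it.

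The upstream DNA of 4 members is printed to show the HIF core motif in 2 targets outside glycolysis and 2 glycolytic enzymes. Each line gives the 250 bases before the RefSeq transcript start (build GRCm38.p6), 5′ to 3′ on the strand of the gene. Capitals mark the core motif, searched as ACGTG and GCGTG on both strands, so that the reverse complements CACGT and CACGC are also in capitals. Where ACGTG on one strand overlaps CACGT on the other, the run CACGTG counts as 2 matches. The windows are chr12:54203875-54204124 on the minus strand for Egln3, chr7:110627407-110627656 on the plus strand for Adm, chr7:46845554-46845803 on the plus strand for Ldha and chrX:106186850-106187099 on the plus strand for Pgk1.
Egln3: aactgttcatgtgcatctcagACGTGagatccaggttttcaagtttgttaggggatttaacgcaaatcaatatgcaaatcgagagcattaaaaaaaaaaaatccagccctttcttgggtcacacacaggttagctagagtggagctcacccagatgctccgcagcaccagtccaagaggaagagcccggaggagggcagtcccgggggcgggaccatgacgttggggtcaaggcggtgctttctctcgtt
Adm: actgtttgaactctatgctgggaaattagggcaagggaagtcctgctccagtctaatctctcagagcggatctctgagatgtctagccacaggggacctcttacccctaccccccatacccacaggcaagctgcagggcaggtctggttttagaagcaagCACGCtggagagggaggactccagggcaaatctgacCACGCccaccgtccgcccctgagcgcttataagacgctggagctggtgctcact
Ldha: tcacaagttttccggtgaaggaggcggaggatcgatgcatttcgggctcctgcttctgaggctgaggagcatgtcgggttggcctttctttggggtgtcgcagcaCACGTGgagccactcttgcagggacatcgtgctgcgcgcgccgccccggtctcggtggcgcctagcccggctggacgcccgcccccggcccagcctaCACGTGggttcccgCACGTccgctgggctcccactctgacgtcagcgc
Pgk1: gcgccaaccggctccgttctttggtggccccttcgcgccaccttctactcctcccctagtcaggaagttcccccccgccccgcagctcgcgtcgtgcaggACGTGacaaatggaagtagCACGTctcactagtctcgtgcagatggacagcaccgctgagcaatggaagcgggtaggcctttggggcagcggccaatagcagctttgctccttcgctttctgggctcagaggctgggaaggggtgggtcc
Egln3 has 1 match, Adm 2, Ldha 5 and Pgk1 2. In the RefSeq promoter table, 34 of the 36 members had an entry (Ero1l under the symbol Ero1a), and Bnip3l and Ndrg1 had none. At least 1 match lay in 40 of the members' 51 start-site windows (78.4%), beside 12679 of all 32851 windows of the same length (38.6%). The share was 81.8% for HIF targets (18 of 22 windows), 75.0% for glycolytic enzymes (15 of 20) and 85.7% for transport and flux genes (6 of 7). Gpi1, Tpi1 and Mif have no match in these windows. A match describes letters in a window and is not a measured binding site.

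The control library held 8994 barcodes and 95499107 UMIs, and the IL4 library 13873 barcodes and 133151428 UMIs, with medians of 9156.5 and 8213 UMIs per barcode. After filters on UMIs, genes and mitochondrial share, 99.4% and 99.2% of barcodes were kept, and doublets were not removed. The libraries share 23 barcode strings, whose profiles correlate between the libraries at a median r of 0.27. Both libraries hold barcodes with only Xist (female) and barcodes with only Y-linked transcripts (male). The Y-only share of these was 36.8% in control and 10.9% in IL4, so sex composition and treatment cannot be told apart in the whole libraries. Barcodes were grouped into 19 clusters without using any of the 36 genes or the further HIF targets and glycolysis genes read below. The regulators of the HIF pathway and the pentose phosphate and citric acid cycle genes were not left out. Clusters were named from marker genes. The monocyte and macrophage pool joins 8 of them: a classical monocyte-like cluster, 3 macrophage-like clusters (led by Cbr2, by Cxcl9 and by Ifnb1) and 4 clusters that met no name and are called by their leading genes Arg1, Spp1, Tppp3 and Hist4h4. Levels are UMIs summed per cluster and library, scaled to all UMIs of that cluster in the library and given as CPM, and intervals are 95% intervals that cover counting error only.

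In the control library the HIF targets were highest in neutrophil-like cells, the Arg1-led cluster and the Spp1-led cluster. Among clusters with at least 100 cells in each library, 8 of the 16 targets peaked in neutrophil-like cells, 4 in the Arg1-led cluster and 2 in mature migratory dendritic cell (DC)-like cells. For P4ha1, Ankrd37, Ak4, Higd1a, Adm and P4ha2 the interval of the highest cluster overlapped that of the next. The summed level of the 16 targets was 4100 CPM (4018 to 4183) in neutrophil-like cells and 3656 CPM (3619 to 3693) in the Arg1-led cluster. It was 2504 CPM in the Spp1-led cluster and 1048 CPM in classical monocyte-like cells. Cycling cells and conventional DC type 1-like (cDC1-like) cells held the least of these clusters, 701 and 759 CPM. The cycling cluster raised 10 cDC1 markers, its best type, so it does not stand for all cycling leukocytes. The NK cell-like, Icos-led and CD8-led T cell-like clusters raised 10, 8 and 11 cycling markers but kept their type names. In the Spp1-led cluster, Slc2a1, Egln3 and Ero1l were among the 10 leading genes although they were not used to form it.

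**Figure D1:**
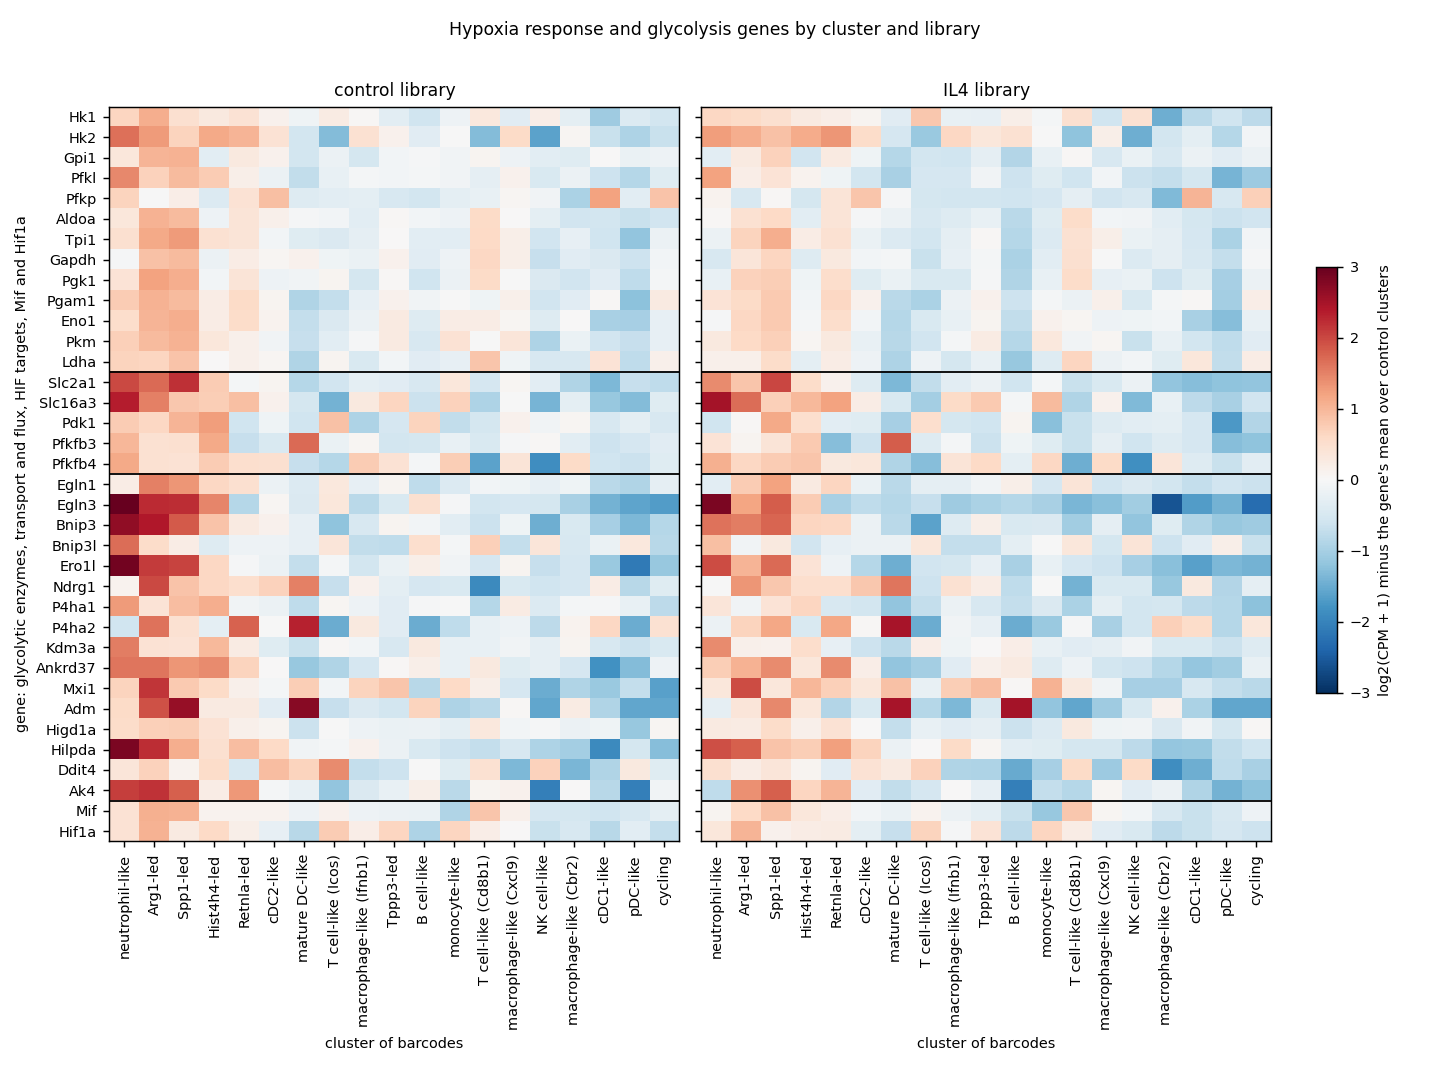
Heat map of the 36 genes (rows, grouped by role) in each cluster and library (columns), coloured by log2(CPM + 1) minus the gene's mean over the control clusters. HIF targets are raised mainly in the neutrophil-like, Arg1-led and Spp1-led columns, while Pfkp, Pfkfb3 and Ddit4 peak elsewhere.

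HIF targets differed more between clusters than glycolytic enzymes did. Egln3, a prolyl hydroxylase induced as HIF feedback, ranged in control from 331 CPM in neutrophil-like cells to 11.8 CPM in cycling cells, a 28.1-fold span. Hilpda, which restrains lipid droplet breakdown, ranged from 1225 CPM in neutrophil-like cells to 44.9 CPM in cDC1-like cells. Bnip3, a mitophagy receptor, ranged from 279 CPM in neutrophil-like cells to 15.1 CPM in NK cell-like cells. Adm, P4ha2 and Ak4 had 0 UMIs in their lowest control cluster, so they have no finite span. Over the 13 targets that have one, the median span from the lowest to the highest cluster was 7.15-fold (2.63 to 28.1), and 12.9-fold over all 16 with those 3 placed as the widest. It was 3.85-fold for glycolytic enzymes (3.04 to 9.82). In IL4 the median was 6.63-fold over 14 targets, 7.30-fold over all 16 on the same terms, and 3.12-fold for the enzymes.

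Glycolytic enzymes peaked mostly in the same 3 populations, in another order. Of the 13 enzymes, 6 were highest in the Spp1-led cluster, 4 in the Arg1-led cluster and 2 in neutrophil-like cells in control, and 9 were highest in the Spp1-led cluster in IL4. The interval overlapped that of the next cluster for Gpi1, Pgam1 and Eno1 in control and for Hk1, Hk2 and Pgk1 in IL4. Summed over the 13, the control level was 8477 CPM in the Spp1-led cluster, 8264 CPM in the Arg1-led cluster and 5996 CPM in neutrophil-like cells. The CD8-led T cell-like cluster (73 control and 157 IL4 cells), with 5869 CPM, was close to neutrophil-like cells on glycolytic enzymes but held 1003 CPM of HIF targets. Gapdh, the glyceraldehyde-3-phosphate dehydrogenase, was at 2691 CPM in the Spp1-led cluster, 2167 CPM in the CD8-led T cell-like cluster and 1372 CPM in neutrophil-like cells. Ldha, which turns pyruvate into lactate, stood in the same order at 854, 835 and 749 CPM.

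To set both groups on 1 scale, each gene's log2(CPM + 1) was centred on its mean over the 40 points of both libraries and averaged over the group. On that scale HIF targets exceeded glycolytic enzymes by 0.70 in neutrophil-like cells, 0.64 in the Arg1-led cluster and 0.63 in mature migratory DC-like cells of the control library. The mature migratory DC-like cells stood at only 0.24 for HIF targets and at -0.39 for glycolytic enzymes. Neutrophil-like cells and the Arg1-led cluster stood at 1.43 and 1.63 for HIF targets. The difference was -0.52 in the cycling cluster, which raised cDC1 markers. It was -0.40 in both the CD8-led T cell-like and the cDC1-like cells. In these clusters glycolytic enzymes stood higher. The IL4 library gave the same signs for these 6 clusters, at 0.51, 0.41, 0.48, -0.61, -0.47 and -0.42. Across the 40 cluster and library points, which include small clusters and mixed barcodes, the means of the 2 groups correlated at r = 0.856 (0.883 over the 20 control points and 0.809 over the 20 IL4 points). The points of a library share its cells' handling and differ in depth, so r is a description.

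**Figure D2:**
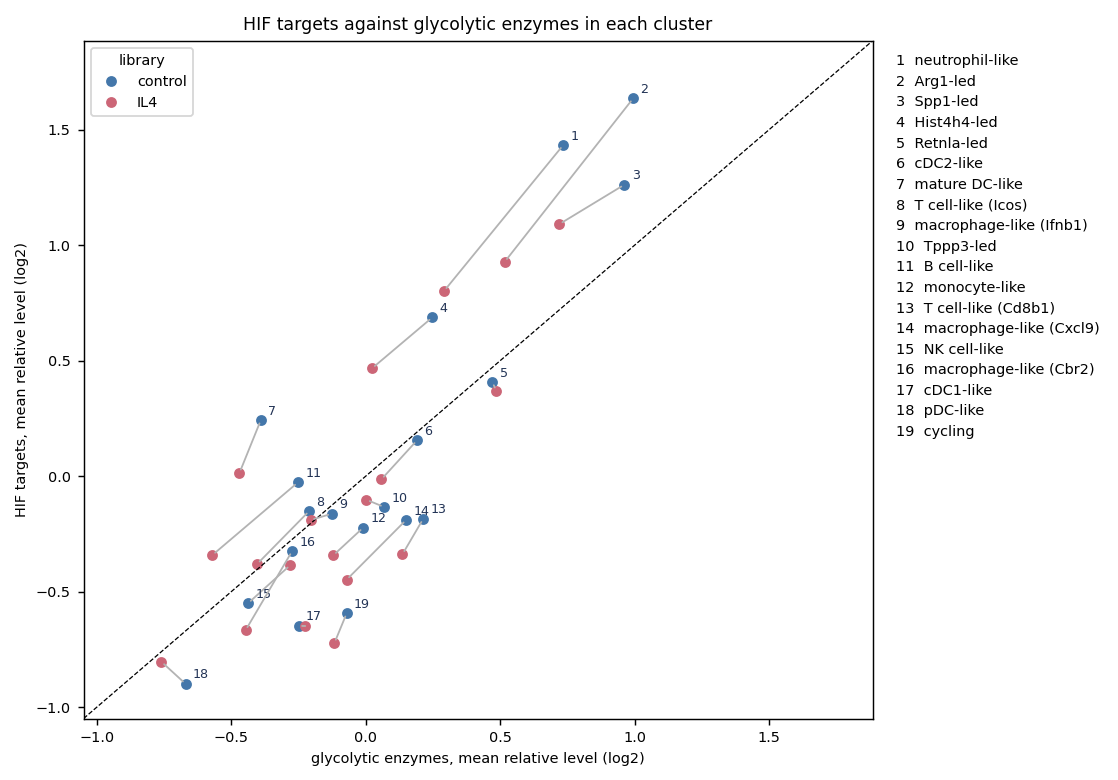
Mean centred log2 level of the 16 HIF targets (vertical axis) against that of the 13 glycolytic enzymes (horizontal axis), 1 numbered point per cluster and library, with a grey line joining control to IL4 and a dashed line of equality. The Arg1-led cluster stood at 1.63 in control and 0.93 in IL4 for HIF targets and at 0.99 and 0.52 for glycolytic enzymes, and neutrophil-like cells at 1.43 and 0.80 and at 0.73 and 0.29.

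Several members did not follow their group. Pfkp, the platelet form of phosphofructokinase, was highest in cDC1-like cells at 578 CPM in control and 505 CPM in IL4, and correlated at 0.12 with the HIF targets over the 40 points. Pfkfb3, which makes the allosteric activator of phosphofructokinase, was highest in mature migratory DC-like cells at 248 and 269 CPM. The same cells had the highest control level of Adm, the gene of the vasodilator peptide adrenomedullin, at 18.5 CPM, and of P4ha2, a collagen prolyl hydroxylase subunit, at 12.97 CPM. In both cases the interval overlapped that of the next cluster. Ddit4, an inhibitor of mTORC1 induced by several stresses, was highest in the Icos-led T cell-like cluster at 198 CPM in control and 118 CPM in IL4. Bnip3, Ero1l, Slc2a1, Egln3 and Hilpda followed the other HIF targets most closely, at r of 0.92, 0.90, 0.89, 0.87 and 0.86.

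Hif1a varied less than most of its targets. It was highest in the Arg1-led cluster at 712 CPM in control and 697 CPM in IL4, and next in the Icos-led T cell-like cluster at 586 and 546 CPM. Neutrophil-like cells, with the highest summed targets in control, held 462 CPM of Hif1a, below the 539 CPM of classical monocyte-like cells. Its correlation with the HIF targets over the 40 points was 0.56. Mif, a cytokine gene that HIF also induces, was highest in the Arg1-led and Spp1-led clusters at 718 and 703 CPM in control, whose intervals overlap, and lowest in classical monocyte-like cells at 182 CPM.

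Outside the list, 8513 genes were ranked by their correlation with the mean of the 16 HIF targets over the 40 points. The first were Npepps (r = 0.867), Pdpn (0.792), Klf7, Ppp1r3b, Lasp1 and Rhov (0.787 each). Of these 6, only Ppp1r3b, which targets a phosphatase to glycogen, differed by more than 1.5-fold in the monocyte and macrophage pool, at 29.1 CPM in control and 14.3 CPM in IL4.

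In the monocyte and macrophage pool (5661 control and 8450 IL4 cells), HIF targets were lower in the IL4 library. The 16 targets summed to 1767 CPM (1755 to 1779) in control and 1354 CPM (1345 to 1363) in IL4, which is 0.77 times. On the log2 scale of CPM + 1, the IL4 to control ratio of 15 of the 16 lay below 0, with a median of -0.47. On this scale 6 targets were lower by more than 1.5-fold and 0 were higher by that much, beside 1.19% lower and 1.47% higher of the 15017 genes with at least 20 UMIs, whose median was -0.05. Glycolytic enzymes were also below control, 13 of 13, with 0 past 1.5-fold in either direction and a median of -0.38. They summed to 5618 CPM in control and 4326 CPM in IL4, again 0.77 times. The summed levels of both groups thus differed by the same factor, while of the 2 groups only the targets outside glycolysis had genes past 1.5-fold.

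**Figure D3:**
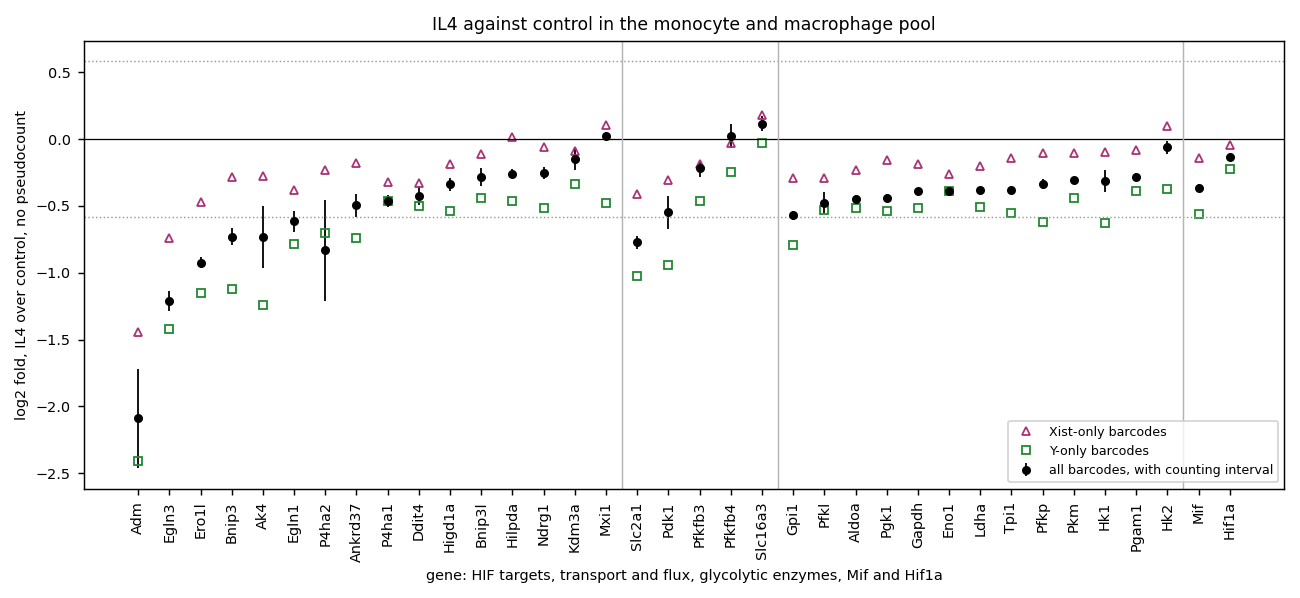
Log2 fold of IL4 over control (vertical axis, no pseudocount) for each of the 36 genes (horizontal axis) in the monocyte and macrophage pool, with 95% counting intervals, and the same fold in barcodes with only Xist (triangles) and with only Y-linked transcripts (squares). Dotted lines mark 1.5-fold, and Adm and Egln3 have the lowest folds over all barcodes.

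Adm had the largest ratio, on few UMIs. It was at 5.42 CPM in control (270 UMIs) and 1.27 CPM in IL4 (81 UMIs), 4.25-fold lower (3.30 to 5.52). Egln3 was at 86.8 CPM in control and 37.5 CPM in IL4, 2.32-fold lower (2.20 to 2.44). Both intervals lie wholly beyond 1.5-fold. Egln1, the main prolyl hydroxylase of normal oxygen tension, was at 59.0 CPM and 38.5 CPM, 1.53-fold lower (1.45 to 1.62), so its interval reaches below 1.5-fold.

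Ero1l, an oxidase of disulfide bond formation in the endoplasmic reticulum, was at 202 CPM in control and 107 CPM in IL4, 1.90-fold lower (1.84 to 1.96). Bnip3 was at 94.6 and 57.0 CPM, 1.66-fold lower (1.59 to 1.73). Its relative Bnip3l was at 69.3 and 56.9 CPM, within 1.5-fold, so the pair of mitophagy receptors differed by unlike factors. Ak4, a mitochondrial adenylate kinase, was at 7.16 CPM (357 UMIs) and 4.31 CPM (274 UMIs), 1.66-fold lower (1.41 to 1.95). The collagen prolyl hydroxylase genes P4ha1 (184 and 134 CPM) and P4ha2 (2.83 and 1.59 CPM) had log2 ratios of -0.46 and -0.56, short of 1.5-fold.

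The other targets in the pool had ratios nearer to 0. Ankrd37, an ankyrin repeat protein gene, stood at 44.4 CPM in control and 31.5 CPM in IL4, a log2 ratio of -0.48. Ddit4 stood at 64.5 and 48.1 CPM, and Higd1a, a mitochondrial protein gene, at 153 and 121 CPM. Hilpda was at 297 and 249 CPM, and Ndrg1, a stress-responsive gene, at 176 and 148 CPM. The histone demethylase gene Kdm3a was at 49.2 and 44.4 CPM. Mxi1, a MYC antagonist, was at 271 CPM in control and 276 CPM in IL4, the 1 HIF target above 0.

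Among the glycolytic enzymes of the pool, Gpi1, the phosphoglucose isomerase, had the largest ratio, 304 CPM in control and 205 CPM in IL4, 1.48-fold lower (1.45 to 1.52). Aldoa, an aldolase, was at 418 and 307 CPM, Pgk1, the phosphoglycerate kinase, at 346 and 255 CPM, and Ldha at 531 and 408 CPM. Gapdh was at 1778 and 1356 CPM, and Pkm, a pyruvate kinase, at 657 and 531 CPM. The remaining enzymes had log2 ratios from -0.47 for Pfkl, a phosphofructokinase, to -0.06 for Hk2, a hexokinase at 131 CPM in control and 126 CPM in IL4. Enzymes other than Hk2 thus differed by similar factors, with log2 ratios between -0.57 and -0.28. Eno1 has a near-identical copy, Eno1b, so reads could be split between them.

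Fuel transport and flux genes did not move as a group. Slc2a1, the glucose importer GLUT1, was at 158 CPM in control and 92.7 CPM in IL4, 1.71-fold lower (1.65 to 1.77). Pdk1, which keeps pyruvate out of the citric acid cycle, was at 23.5 and 16.1 CPM, a log2 ratio of -0.52. Pfkfb3 was at 79.7 and 68.5 CPM. Pfkfb4, its relative, was at 34.5 and 35.1 CPM, and Slc16a3, the lactate exporter MCT4, at 93.4 CPM in control and 101 CPM in IL4. Of these 5 genes, 1 was lower by more than 1.5-fold. Hif1a was at 489 and 447 CPM, 1.10-fold lower (1.08 to 1.11), and Mif at 420 and 326 CPM, a log2 ratio of -0.37.

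The make-up of the pool differed between the libraries, and the result moved with it. The Arg1-led and Spp1-led clusters, which hold the most HIF target UMIs, made up 22.2% and 10.5% of pool cells in control and 16.7% and 3.37% in IL4. The Ifnb1-led macrophage-like cluster made up 6.78% in control and 19.1% in IL4. With the control clusters weighted as in IL4, the median of the HIF targets was -0.30, with 2 of 16 past 1.5-fold, and that of the glycolytic enzymes -0.21. Without the Arg1-led and Spp1-led clusters, the HIF median was -0.08 with 0 past 1.5-fold, the glycolytic median -0.11, and the ratios of Bnip3 and Ak4 turned to 0.02 and 0.13. The share of all genes past 1.5-fold was not counted under the weighting or without these clusters. The size of the pool's difference thus moved with these 2 clusters.

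The sexes also differed in the pool. Among Xist-only barcodes (2793 control and 6301 IL4), the HIF targets summed to 1508 CPM in control and 1362 CPM in IL4, with a median of -0.21 and 2 targets, Adm and Egln3, lower by more than 1.5-fold, beside 2.85% of all genes. Among Y-only barcodes (1673 and 754), they summed to 2064 and 1314 CPM, with a median of -0.53 and 7 targets past 1.5-fold, beside 6.21% of all genes. Egln3 was at 61.9 and 37.0 CPM in Xist-only barcodes and at 112 and 41.9 CPM in Y-only barcodes. Ero1l was at 141 and 102 CPM in Xist-only and at 279 and 126 CPM in Y-only barcodes. Both genes were thus closer between the sexes in IL4 than in control. Within control, Y-only barcodes had 1.37 times (1.35 to 1.39) the HIF target level of Xist-only barcodes, and within IL4 0.96 times. Cluster make-up differed between these sets in control. The Y-only share was 45.45% in the Arg1-led cluster, 44.71% in the Spp1-led cluster and 37.46% in the pool. Within clusters the control factor was 1.33 in Arg1-led, 1.20 in Spp1-led, 1.07 in classical monocyte-like and 1.02 in the 3 macrophage-like clusters together. The IL4 factors were 1.13, 0.75, 0.78 and 0.997 in the same order. The part of cluster make-up in the pool factors was not tested, nor that of sex composition in the difference between the libraries.

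In the Arg1-led cluster itself (1259 control and 1411 IL4 cells), the HIF targets were again lower in IL4. They summed to 3656 CPM in control and 2487 CPM in IL4, 0.68 times (0.67 to 0.69). All 16 log2 ratios were below 0, with a median of -0.66, and 9 were lower by more than 1.5-fold and 0 higher, beside 3.44% lower and 3.64% higher of 11607 genes, whose median was 0.01. Ero1l was at 428 CPM in control and 200 CPM in IL4, 2.14-fold lower (2.03 to 2.25). Egln3 was at 191 and 92.1 CPM, 2.08-fold lower (1.92 to 2.25). Bnip3 was at 233 and 129 CPM and Ndrg1 at 440 and 280 CPM. The others past 1.5-fold were Adm, P4ha2, Ak4, Egln1 and Bnip3l, while Hilpda (801 and 601 CPM) and Mxi1 (615 and 541 CPM) stayed within it.

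Glycolytic genes of the Arg1-led cluster were lower too, though fewer passed 1.5-fold. The 13 enzymes summed to 8264 CPM in control and 5894 CPM in IL4, 0.71 times, with a median of -0.49. Gpi1 (484 and 288 CPM) and Aldoa (676 and 448 CPM) were lower by more than 1.5-fold. Slc2a1 was at 266 CPM in control and 145 CPM in IL4, 1.83-fold lower (1.71 to 1.95), while Slc16a3 was at 159 and 177 CPM. Hif1a was at 712 and 697 CPM, a log2 ratio of -0.03. In this cluster the HIF targets summed to 3115 and 2486 CPM in Xist-only barcodes, with a median of -0.36 and 2 of 16 lower by more than 1.5-fold, beside 4.26% of all genes. In Y-only barcodes they summed to 4153 and 2812 CPM, with a median of -0.60 and 8 of 16 past 1.5-fold, beside 16.0% of all genes. Fewer targets, and also a smaller share of all genes, thus passed 1.5-fold among Xist-only than among Y-only barcodes. Among Y-only barcodes the sum was 0.68 times control in this cluster and 0.64 times in the pool. The median depended on where the cluster was drawn: it was -0.34 when the listed genes were kept for clustering, -0.42 with a 5% mitochondrial limit and -0.51 at the higher resolution of 2. The summed level of melanoma markers in the cluster was 207 CPM in control and 258 CPM in IL4, and its part in the result was not tested.

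The Spp1-led cluster (596 control and 285 IL4 cells) showed ratios that differed between the sexes. In all its cells the HIF targets summed to 2504 CPM in control and 2121 CPM in IL4, 0.85 times, with a median of -0.15. Adm, at 17.2 and 7.08 CPM, was lower by more than 1.5-fold, and P4ha2 was higher on 20 and 14 UMIs, beside 4.78% lower and 4.26% higher of all genes. Egln3 was at 191 and 144 CPM and Slc2a1 at 371 and 326 CPM. The 13 glycolytic enzymes summed to 8477 and 6978 CPM, 0.82 times, with 0 past 1.5-fold. Among Xist-only barcodes (256 control and 222 IL4 cells), the HIF targets summed to 2329 and 2069 CPM, with a median of -0.14 and 1 target lower by more than 1.5-fold, beside 5.05% of all genes. Among Y-only barcodes (207 control but 27 IL4 cells), they summed to 2793 and 1549 CPM, 0.55 times, with a median of -0.94. There 8 of 15 targets and 9 of 13 glycolytic enzymes were lower by more than 1.5-fold, beside 21.5% of all genes. Slc2a1 was at 331 and 360 CPM in Xist-only barcodes and at 417 and 153 CPM in Y-only barcodes, 2.72-fold lower (1.99 to 3.82).

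Neutrophil-like cells (411 control and 160 IL4 cells) summed to 4100 CPM of HIF targets in control and 2570 CPM in IL4, 0.63 times, and in IL4 the interval overlapped that of the Arg1-led cluster. Of the 14 targets with at least 20 UMIs, 7 were lower by more than 1.5-fold and 0 higher, with a median of -0.66. In these cells 14.6% of 8120 genes were lower and 7.11% higher by that much, so a larger share of all genes differed here than in the pool. Hilpda was at 1225 CPM in control and 661 CPM in IL4, 1.85-fold lower (1.68 to 2.05). Ero1l was at 739 and 387 CPM, and P4ha1 at 373 and 199 CPM. Egln3, lower in the Arg1-led cluster, was at 331 CPM in control and 290 CPM in IL4 in neutrophil-like cells, within 1.5-fold. The others past 1.5-fold were Bnip3, Bnip3l, Ankrd37 and Ak4, the last on 39 UMIs in control and 1 in IL4.

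Of the 13 glycolytic enzymes in neutrophil-like cells, Gpi1, Tpi1 and Pgk1 were lower by more than 1.5-fold, and the sum was 5996 CPM in control and 4331 CPM in IL4. A gate that ignores clusters assigns each barcode to the type whose markers took the highest share of its UMIs. Among gated neutrophils (452 control and 321 IL4 cells), 11 of 13 enzymes and 10 of 14 HIF targets were lower by more than 1.5-fold, beside 9.73% of all genes, with medians of -0.76 and -0.87. The neutrophil-like cluster supplied 74.8% of these gated cells in control and 41.7% in IL4. Slc16a3, highest in these cells, was at 285 and 317 CPM. The summed level of 10 neutrophil marker genes was 12774 CPM in control and 20290 CPM in IL4 in the same cluster, and its part in the result was not tested. Y-only barcodes (113 control and 19 IL4 cells) had HIF sums of 4210 and 1684 CPM, and Xist-only barcodes (100 and 53 cells) of 4081 and 2817 CPM, so both sexes were below control.

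**Figure D4:**
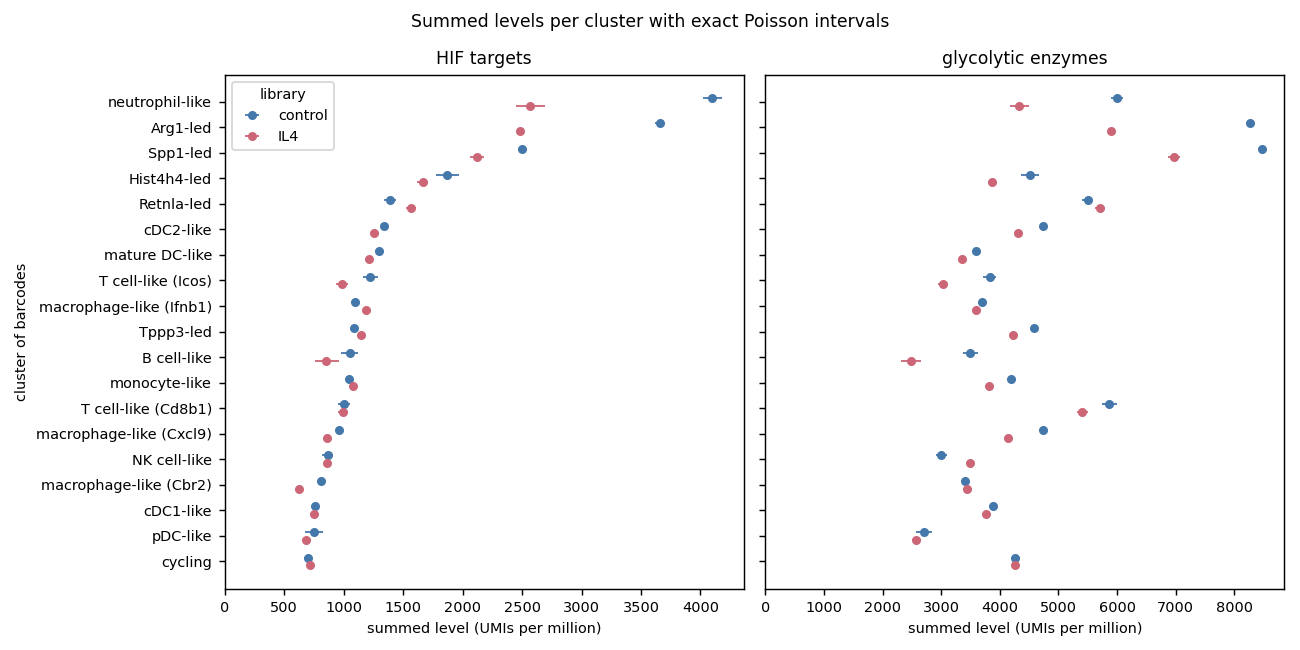
Summed CPM of the HIF targets and of the glycolytic enzymes in each cluster, control beside IL4, with 95% counting intervals. Neutrophil-like cells hold 4100 CPM of HIF targets in control and 2570 CPM in IL4, and the Arg1-led cluster 3656 and 2487 CPM, while the monocyte-like cluster holds 1048 and 1078 CPM.

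The macrophage-like clusters (3 clusters, 1521 control and 2822 IL4 cells) together did not show the lower HIF sum, while macrophages gated by markers did. The clusters' targets summed to 932 CPM in control and 1013 CPM in IL4, 1.09 times, with a median of -0.07. Mxi1 (115 and 178 CPM) and Hilpda (123 and 187 CPM) were higher by more than 1.5-fold and Adm was lower on 31 and 11 UMIs, beside 2.81% higher and 5.47% lower of all genes, whose median was -0.11. Neither Mxi1 nor Hilpda was past 1.5-fold within any of the 3 clusters, whose shares differ between the libraries. Egln3 was at 23.7 and 16.6 CPM, and Ndrg1 at 88.2 and 116 CPM. The Cbr2-led cluster held the largest share of these cells in control (638 cells) and the Ifnb1-led cluster in IL4 (1612 cells). By cluster, the HIF sum was 811 and 629 CPM in the Cbr2-led, 961 and 863 CPM in the Cxcl9-led and 1097 and 1188 CPM in the Ifnb1-led cells. The glycolytic enzymes summed to 3991 and 3790 CPM, 0 of them past 1.5-fold.

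By the marker gate, macrophages (2250 control and 3649 IL4 cells) held 1393 CPM of HIF targets in control and 1162 CPM in IL4. Their median was -0.36, with 4 targets lower by more than 1.5-fold and 0 higher, beside 2.51% of all genes lower. The Arg1-led and Spp1-led clusters supplied 15.3% and 9.60% of these gated cells in control and 11.3% and 3.21% in IL4. Gated classical monocytes (4171 and 6321 cells) held 1801 and 1342 CPM, with a median of -0.44 and 5 targets lower by more than 1.5-fold, beside 1.24% of all genes. Of them, 20.8% and 8.51% in control and 14.9% and 2.48% in IL4 lay in the Arg1-led and Spp1-led clusters. The gate thus spreads these 2 clusters over both types, and cluster and gate give opposite directions for the summed HIF targets of classical monocytes and of the 3 macrophage-like clusters together.

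In the other clusters the HIF sums of the libraries differed in either direction. They were 1048 CPM in control and 1078 CPM in IL4 in the classical monocyte-like cluster, 1085 and 1146 CPM in the Tppp3-led cluster, and 1388 and 1563 CPM in a Retnla-led cluster outside the pool. Mature migratory DC-like cells held 1295 and 1218 CPM, cDC2-like cells 1337 and 1259 CPM, and cDC1-like cells 759 and 747 CPM. NK cell-like cells (189 control and 531 IL4 cells) held 868 and 863 CPM of HIF targets but 3004 and 3496 CPM of glycolytic enzymes, 1.16 times (1.13 to 1.20). In NK cell-like cells the 2 groups of genes thus parted, by a factor within 1.5-fold. B cell-like cells were few (93 and 44) and held 1050 and 855 CPM of HIF targets.

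Across the 16 clusters with at least 100 cells in each library, members differed in how widely they were lower. Egln3 was lower by more than 1.5-fold, with an interval that excludes 1, in 7 clusters, among them classical monocyte-like cells (39.0 and 20.1 CPM) and cDC2-like cells (42.1 and 23.5 CPM). Ero1l was lower in 6, Pfkfb3 in 4, and P4ha1 and Ddit4 in 3 each. Mxi1, Hilpda and Ankrd37 were higher in 2 clusters each. Of all genes, 2.73% (cDC2-like) to 15.7% (Cbr2-led) were lower by 1.5-fold within these clusters, with no condition on the interval. The share higher ran from 1.63% (cDC2-like) to 9.81% (Hist4h4-led). In how many clusters other genes passed was not counted. Gapdh, Pgam1, Eno1, Pkm, Ldha, Slc16a3, Pfkfb4, Kdm3a, Higd1a, Mif and Hif1a passed in 0 clusters in either direction. Egln3 and Ero1l thus passed the 1.5-fold limit also outside the Arg1-led cluster, while Slc2a1 and Egln1 passed it in 1 cluster each. Short of the limit, Slc2a1 was also lower in neutrophil-like cells, at 324 CPM in control and 218 CPM in IL4.

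Per cell, HIF target UMIs were compared with every pool cell thinned to a depth of 2000 UMIs (481 control and 793 IL4 cells were too shallow to enter). Cells with at least 6 HIF target UMIs made up 21.8% of control (20.7 to 23.0) and 14.7% of IL4 (14.0 to 15.6). Unthinned, the shares were 72.5% and 67.8%. In the Arg1-led cluster the thinned shares were 53.5% and 38.4%, and in neutrophil-like cells 50.8% and 32.8%. In NK cell-like cells, which had low sums, they were 2.65% and 2.96%. The cut is a range and not a cell type, and about 10.1% of control and 10.5% of IL4 pool cells held 5 or 6 UMIs.

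**Figure D5:**
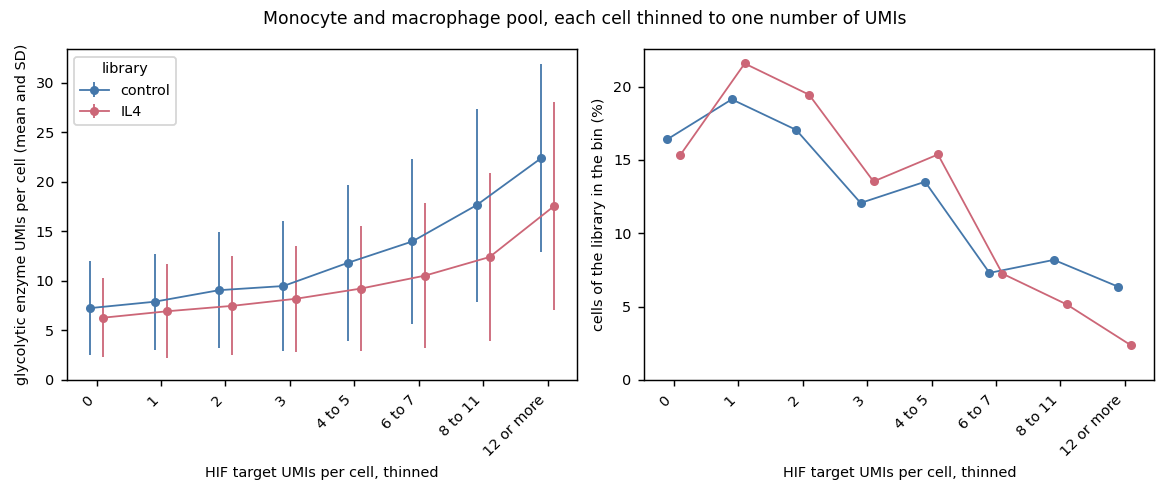
Mean glycolytic enzyme UMIs per thinned pool cell, with SD bars (left), by number of HIF target UMIs in the cell (horizontal axis), for control and IL4. The right panel gives the percent of the library's cells in each bin. Mean glycolytic UMIs run from 7.25 to 22.4 in control and from 6.28 to 17.5 in IL4.

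Over the whole pool, cells with more HIF target UMIs also held more glycolytic UMIs. Pool cells with 0 HIF target UMIs held on average 7.25 glycolytic UMIs in control and 6.28 in IL4, and those with 12 or more held 22.4 and 17.5. The top bin held 6.35% of control and 2.35% of IL4 cells. Slc2a1 went from 0.14 to 1.40 UMIs in control and from 0.10 to 0.91 in IL4. Hif1a went from 0.77 to 1.35 UMIs in control and from 0.77 to 1.44 in IL4. Over cells, HIF and glycolytic UMIs correlated at 0.526 in the control pool and 0.354 in the IL4 pool, which join clusters of unlike levels. Within single clusters of the pool, r ran from 0.152 (Hist4h4-led) to 0.431 (Arg1-led and Spp1-led) in control. In IL4 it ran from 0.148 (Hist4h4-led) to 0.394 (Spp1-led). Outside the pool, neutrophil-like cells had the highest r of all clusters, 0.753 and 0.764, and cDC1-like cells had 0.003 and 0.169. HIF target and Hif1a UMIs correlated at 0.12 in both pools, which in such sparse counts is no finding.

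The wider pathway was read from lists of related genes in the pool. Of 21 further HIF targets with at least 20 UMIs, 3 were lower by more than 1.5-fold and 0 higher, beside 1.19% and 1.47% of all genes. Their median was -0.28. The 3 lower genes were Nos2, the inducible nitric oxide synthase, at 9.09 and 3.81 CPM, Arg1, an arginase, at 435 and 241 CPM, and Gys1, a glycogen synthase, at 19.2 and 11.5 CPM. Of 12 regulators of the HIF pathway, such as Arnt and Vhl, 0 passed in either direction, with a median of -0.02. Of 9 other glycolysis genes, 7 pentose phosphate genes and 14 genes of pyruvate entry and the citric acid cycle, 0 passed, with medians of -0.14, -0.25 and -0.09. The listed HIF targets thus had lower medians in the pool than the pathway's regulators and the citric acid cycle genes. The pentose phosphate median of -0.25 was close to the -0.28 of the further HIF targets.

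Markers of other cells and of handling were measured beside these values in the pool. Melanoma markers summed to 191 CPM in control and 184 CPM in IL4, fibroblast markers to 2.91 and 4.67 CPM, endothelial markers to 33.5 and 30.3 CPM, and erythroid markers to 0.52 and 1.10 CPM. Neutrophil markers summed to 500 and 560 CPM. Handling-stress genes summed to 19385 and 19565 CPM, but Hspb1, Hspa1a and Hspa1b, heat-shock genes, were lower in IL4, at 69.9 and 24.6 CPM for Hspb1, and Egr1, an immediate early gene, was higher, at 240 and 372 CPM. The part of these in the difference of the HIF targets was not tested.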

How the data were processed

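The authors deposited raw UMI counts for each library, with Cell Ranger 7.2.0 and build mm10 named in the submitters' processing notes and no annotation release named. Barcodes below 500 UMIs or 250 genes, or above 10% mitochondrial UMIs, were dropped. They were scaled to 10000 UMIs, logged and clustered together with scanpy 1.11.5 (2000 variable genes without the members and the further HIF targets and glycolysis genes, 30 components, 15 neighbours, Leiden resolution 1). A cluster was named when at least 3 markers of a type were raised 1.5-fold and at 5 CPM or more, with a lead of 2 over the next type and no contrary leading genes; 1 of these conditions was chosen after seeing the clusters. In a second assignment, each barcode went to the type whose markers took the highest share of its UMIs, and the text calls these cells gated. The name cycling went to clusters with at least 6 cycling markers raised whose best type was not T or NK cell. T and NK barcodes with over 20 UMIs of 8 myeloid genes per 10000 were set apart as mixed. No doublet caller was run.

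Counts were summed per cluster and library and divided by the total to give CPM. Log2 ratios are of CPM + 1, IL4 over control, for genes with at least 20 UMIs over both libraries, and 1.5-fold was the limit for a count of genes. Intervals are exact Poisson for levels and exact binomial for folds and shares, at 95%. For per-cell values, each cell was thinned to 2000 UMIs with a fixed seed. With 1 library per group no test was run, and samples were grouped by the labels' treatment. All 36 members are named, by role. The ratio scripts were tested on simulated data. Another 14 settings were tried, and 3 more were added after seeing the data. The members, lists and alternatives were chosen with earlier results of these data known. Aldoa has a second matrix row of 5 UMIs that was not used.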

Additional observations from a re-analysis of the deposited data

Results flagged for a closer look

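Members whose ratios had opposite signs in different clusters are listed here, and in each case the difference between the clusters was not tested. Hk2, a hexokinase, was at 54.7 CPM in control and 82.6 CPM in IL4 in cycling cells, a log2 ratio of 0.59, and at 91.4 and 59.9 CPM in the Cbr2-led macrophage-like cluster, a log2 ratio of -0.60. Ankrd37 was at 45.5 and 77.9 CPM in the Retnla-led cluster, a log2 ratio of 0.76, and at 77.6 and 36.3 CPM in the Hist4h4-led cluster, a log2 ratio of -1.08. Hilpda was at 44.9 and 77.5 CPM in cDC1-like cells, a log2 ratio of 0.77, and at 1225 and 661 CPM in neutrophil-like cells, a log2 ratio of -0.89. Each of these 6 ratios is past 1.5-fold with a counting interval that excludes no difference.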

How the results depend on the processing

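In the monocyte and macrophage pool, the HIF target median of -0.47 was -0.21 in Xist-only barcodes, -0.30 with control clusters weighted as in IL4, -0.41 with a median-of-ratios size factor, -0.40 with a per-cell marker gate, -0.39 with a pseudocount of 5 and -0.0755 without the Spp1-led and Arg1-led clusters. The glycolytic median of -0.38 was -0.16 among Xist-only barcodes and -0.52 among Y-only ones, -0.21 with the weighting, -0.31 with the size factor, -0.33 with the gate, -0.41 as a mean of each cell's CPM, -0.41 without barcodes holding a melanoma marker UMI and -0.11 without those 2 clusters. The count of 6 HIF targets lower by 1.5-fold was 2 in Xist-only barcodes, 2 with the weighting and 0 without the 2 clusters, where Bnip3 (0.0243) and Ak4 (0.13) reversed. Of all genes, 1.19% were lower in the main setting and 2.85% in Xist-only barcodes. That share was not counted with the weighting or without the 2 clusters. In the Arg1-led cluster the median of -0.66 was -0.36 in Xist-only barcodes, -0.34 with the listed genes kept for clustering, -0.42 with a 5% mitochondrial limit and -0.51 at resolution 2. The cause of these shifts was not tested. The 2 cluster exclusions and the melanoma filter were chosen after seeing the data, as were the alternatives for the Arg1-led and neutrophil-like clusters. The gate has no Arg1-led class, and the weighting has no meaning within 1 cluster, so neither was run there. No paired analysis was possible because each group has 1 library, with 1 shared replicate number. Depth limits Adm, P4ha2 and Ak4 outside the largest clusters.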
